A study of Rattus norvegicus with 20 samples.

Results

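Of 20 rat ovary arrays, 3 stood apart by RNA of motile cilium genes: replicates 2 and 4 at 0 mg/kg/day and replicate 5 at 20 mg/kg/day. They were chosen by their log2 signal of epithelial genes in an earlier look at the same arrays, so every difference from the other 17 arrays is a description, given with its error and without a p-value. Each array carries the RNA of the entire ovaries of 1 female Sprague Dawley offspring aged 46 days, from independent litters. The dams ate a commercial mixture of brominated flame retardants (polybrominated diphenyl ethers and hexabromocyclododecane) from before mating until weaning on day 21. The dose was 0 mg/kg/day for 5 offspring, 0.06 for 4 of them, 20 for 5 and 60 for 6. Without the 3 arrays these groups hold 3, 4, 4 and 6 animals. The animals differ in dose alone in the labels, and all groups share the strain, sex, age and tissue. Levels are log2 signal relative to the 75th percentile of the array, so 0 is the level of that percentile, and a value compares arrays within 1 probe, not genes with each other. The 75th percentile was 1419 to 1737 on the 3 arrays and 1158 to 1725 on the other 17. Between 72.6% and 79.2% of probes were well above background on the 3 arrays, against 69.2% to 76.3% on the other 17. The part of these shares in the differences was not tested. Of the 3 slides, slide 1 held 1 of the 3 arrays among 7, slide 2 none among 6 and slide 3 the other two among 7, and slide was fitted as a block.

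The oviduct lies beside the ovary and is lined by multiciliated cells, whose beating cilia move the egg, and by secretory cells, which make the tubal fluid. Motile cilia are built around microtubule doublets with dynein arms, radial spokes and a central pair, under transcription factors that include FOXJ1, TP73 and the RFX family. The rat ovary is covered by its own thin surface epithelium, which shares keratins with the oviduct and carries no program of motile cilia.

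The label of oviduct epithelium fits the cilium genes better than the secretory ones. Of 7 markers set for multiciliated cells, 5 were measured, and Foxj1, Rsph1, Tppp3 and Sntn were higher on each of the 3 arrays than on any of the other 17, as were 0.84% of all measured genes, while Tekt1 overlapped. Of 5 oviduct secretory markers, 3 were measured, and Pax8, Sox17 and Wfdc2 all overlapped. Ovgp1 and Muc16, secretory products of the oviduct, had no probe named here and were not analysed. All 7 markers set for epithelium of any organ were measured, and only Cldn4 was higher on each of the 3 arrays than on the other 17. Epcam, Cdh1, Cldn3, Cldn7, Grhl2 (+0.14 ± 0.12 log2, SE) and Esrp1 (-0.16 ± 0.26) overlapped. Among the 6 markers given with the arrays (Krt7, Krt19, Elf3, Spint1, Tmprss2 and Rab25), Elf3 and Spint1 separated the 3 arrays from all others. The arrays are therefore called cilium-high below.

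Across all genes, 90 of the 12619 measured (0.713%) were higher on each cilium-high array than on each of the other 17 and at least 1 log2 unit higher in the fit, and 0 (0.0%) were lower by the same rule. Of these 90 genes, 40 were in the lists of motile cilium genes, 4 in the lists of epithelial genes, 1 in the oviduct secretory list and 1 among epithelial fluid transporters. The remaining 44 were in no list. The lists are not complete, and some of the 44, such as Cfap107, Efhb and Daw1, are also cilium genes. In 22 of the 90 the fitted difference was at least 8-fold, with genes well above background on 0 of the 17 arrays taken at their lower bound. Only 1 of these 22, Tspan1, was well above background on all 17, so the sizes of the others rest in part on values that were not. At any size, 106 genes (0.84%) lay above all 17, and only Gtpbp10 lay below all 17, with a highest value of -0.25 on the 3 arrays, a lowest of -0.23 on the 17 and a fitted difference of -0.35 ± 0.10. Just inside the size limit stood Vwa3a at +1.08 log2, and just outside it Cst6 at +0.99. With 1 array against the 6 others on slide 1 the count was 170, and with 2 against 5 on slide 3 it was 147, which held 88 and 89 of the 90. With another background correction, normexp on the median signals, it was 37.

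Sequence before the start of these genes was searched for an arm of the X-box, the DNA element that RFX factors bind, because the genes stood high together. The 5 stretches shown are the 120 bases before the RefSeq start (assembly GRCr8, read 5′ to 3′ on the strand of the gene) of cilium genes among the 90, with the letters searched, or their reverse complement, in capitals.
Sntn, minus strand, chr15:13956091-13956210: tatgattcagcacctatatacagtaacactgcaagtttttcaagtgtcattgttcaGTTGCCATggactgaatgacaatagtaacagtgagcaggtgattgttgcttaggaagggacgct
Kif9, plus strand, chr8:119337979-119338098: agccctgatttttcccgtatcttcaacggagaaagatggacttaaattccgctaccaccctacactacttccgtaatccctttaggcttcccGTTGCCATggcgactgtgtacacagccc
Deup1, minus strand, chr8:20723586-20723705: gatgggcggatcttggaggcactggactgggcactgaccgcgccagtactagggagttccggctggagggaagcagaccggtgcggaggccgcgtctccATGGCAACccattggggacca
Iqcg, plus strand, chr11:81235210-81235329: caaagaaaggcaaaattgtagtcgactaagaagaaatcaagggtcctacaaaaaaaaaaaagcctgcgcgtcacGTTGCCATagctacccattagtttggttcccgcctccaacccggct
Cfap161, minus strand, chr1:147177822-147177941: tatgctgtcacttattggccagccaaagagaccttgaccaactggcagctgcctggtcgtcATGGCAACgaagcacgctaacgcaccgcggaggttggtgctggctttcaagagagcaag

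The letters searched were GTTGCCAT, on both strands, in the window from 250 bases before to 50 bases after each start. They were present in 6 of the 32 promoters at hand for cilium genes among the 90 (18.8%), in 9 of the 117 promoters of the whole cilium lists (7.69%) and in 337 of all 27457 promoters (1.23%). A match describes letters and not a bound site. The forkhead letters TGTTTAC were in 3 of the 32 promoters (9.38%), a small count, in 7 of the 117 (5.98%) and in 3.76% of all promoters. For epithelial genes, the grainyhead letters AACNNGTT were in 4 of 54 promoters (7.41%) and in 4.13% of all. Over the 10308 promoters of genes that passed the filter, the shares were 1.12% for the X-box arm, 2.41% for the forkhead and 3.31% for the grainyhead letters.

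Of the 5 measured regulators of ciliated cells, Foxj1, Tp73 and Deup1 were in the set of 90, while Rfx2 and Rfx4 overlapped. Foxj1, the transcription factor that drives motile cilium formation, lay at -2.20, -1.76 and -2.15 log2 on the cilium-high arrays, against a lowest, median and highest of -8.39, -6.38 and -3.03 on the other 17. The sets did not overlap, and the highest of the 17 was replicate 6 at 60 mg/kg/day, with a fitted difference of +3.66 ± 0.61 log2 (SE) and 9 of the 17 well above background. Tp73, a p53 family member needed for multiciliated cells in mice, lay at -4.47, -3.98 and -4.07 on the cilium-high arrays and at -9.54, -8.39 and -6.13 (lowest, median, highest) on the other 17. It was well above background on 1 of the 17. Deup1, a protein of the deuterosome where the many basal bodies arise, was well above background on all 3 and on 0 of the 17, which leaves at least 2.07-fold higher. Rfx2, an RFX factor, lay at -3.23, -2.57 and -2.46 on the cilium-high arrays and reached -3.06 on the others, so it overlapped. Rfx4, of the same family, was +0.59 ± 0.99, well above background on 2 of the 3 and 11 of the 17, and overlapped too. Of the 13 regulators in the list, 5 had a measured probe and 3 were among the 90, with a median difference of +3.08 log2, or +1.05 with Deup1 at its lower bound.

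Genes of the dynein arms followed. Dynlrb2, a dynein light chain of the roadblock type, lay at -1.12, -0.77 and -0.56 log2 on the cilium-high arrays, against -7.00, -6.30 and -3.22 (lowest, median, highest) on the other 17. All 3 stood at least 2 log2 units above the next array, and a second probe of the gene gave +4.70, beside +4.60 ± 0.63 for the main one. Dnali1, the axonemal dynein light intermediate chain, was +3.43 ± 0.44 and well above background on 6 of the 17. Dnaaf11, a factor that assembles dynein arms, was well above background on 0 of the 17 and at least 1.41-fold higher. Of the 16 measured genes of this list, 9 were among the 90. The smallest difference was that of Dnaaf1, another assembly factor, at -0.96 ± 1.01, with -4.01, -4.96 and -4.25 on the cilium-high arrays and -6.47 to -0.88 on the others.

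Among genes of the radial spokes and the central pair, 6 of 11 measured were in the set of 90. Rsph10b, a spoke-head protein, lay at -1.43, -1.05 and -1.31 log2 on the cilium-high arrays and at -5.29, -4.49 and -3.14 (lowest, median, highest) on the other 17. It was well above background on all 20 arrays, so its difference of +2.96 ± 0.35 is not a bound. Rsph1, another spoke protein, lay at -1.40, -1.15 and -1.11 on the cilium-high arrays and at -3.62, -3.16 and -2.28 on the others. Dydc2 was +4.15 ± 0.60 with 1 of the 17 well above background, and Rsph14, a spoke protein, was well above background on 0 of the 17 and at least 3.05-fold higher. Rsph6a, known from sperm tails in mice, was +0.10 ± 0.18 and overlapped.

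The largest fitted difference of the cilium lists was that of Sntn, which encodes sentan, a protein of the ciliary tip. It lay at -0.55, -0.33 and -0.09 log2 on the cilium-high arrays, against -9.25, -7.12 and -2.67 (lowest, median, highest) on the other 17, a fitted difference of +5.56 ± 0.90. The highest of the 17 was replicate 4 at 20 mg/kg/day, and only 7 of the 17 were well above background, so this size rests in part on values at background. Capsl, a calcyphosine-like calcium-binding protein, was +4.51 ± 0.75, and Tekt2, a tektin inside the microtubule doublets, was +3.54 ± 0.46. They were well above background on only 2 and 5 of the 17, so the same limit holds for these sizes. Tppp3, a tubulin-binding protein, lay at 0.92, 1.27 and 1.22 on the cilium-high arrays and at -1.38, -0.90 and 0.37 on the others. Dnaaf6, a dynein assembly factor, was well above background on 0 of the 17 and at least 4.15-fold higher. Of the 46 measured genes of the list of other cilium components, 22 were among the 90, and Cfap300 stood at -0.02 ± 0.31.

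**Figure D1:**
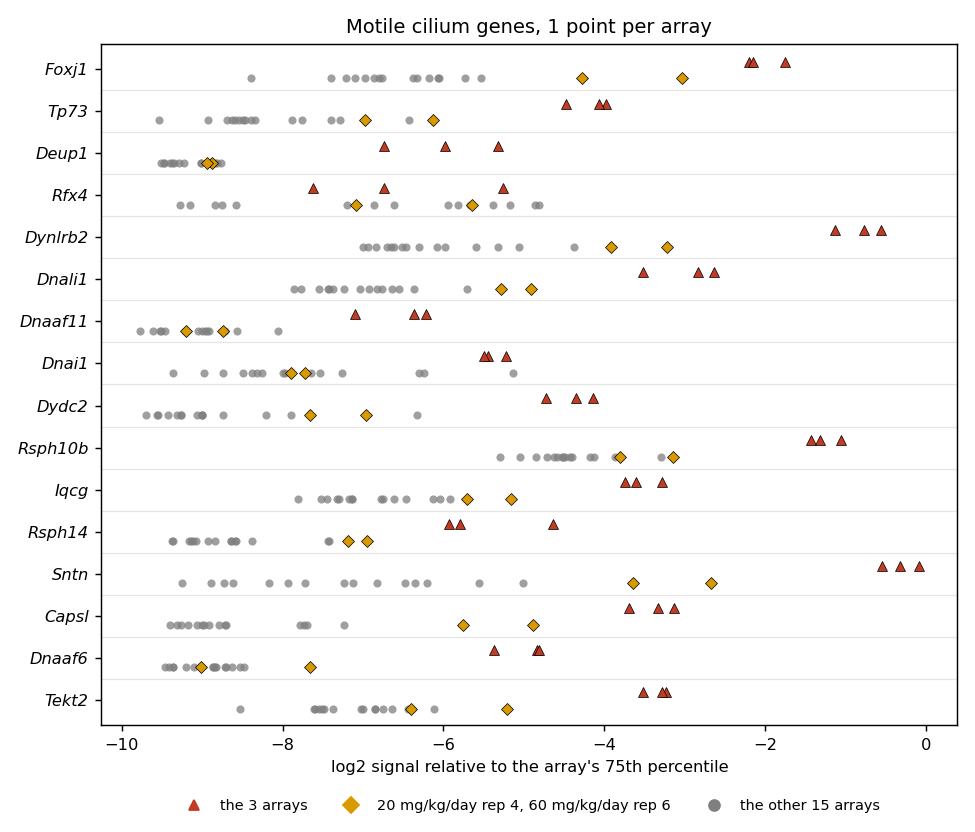
Levels of the 4 most different genes of each motile cilium list, 1 point per array, in log2 signal relative to the array's 75th percentile (x axis). Red triangles are the 3 cilium-high arrays, amber diamonds replicate 4 at 20 mg/kg/day and replicate 6 at 60 mg/kg/day, and grey circles the other 15; for Sntn the triangles lie at -0.55 to -0.09 and all other points at -2.67 or below.

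Taken over the 145 genes of the motile cilium lists, 89 had a named probe and 78 were measured, 6 of them only through the cilium-high arrays. The median difference of the 78 was +1.19 log2, and +1.11 with those 6 at their lower bound, beside 0.00 for all 12619 genes. For the 46 that were well above background on all 20 arrays it was +0.60, and 13 of these were among the 90. Of all 10998 genes well above background on all 20 arrays, 25 were among the 90, and the median difference of the 10998 was 0.00. A filter that keeps a gene seen on 3 arrays favours genes high on these 3, so the counts describe and do not test.

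Epithelial genes that are not ciliary differed less and less uniformly. Tspan1, a tetraspanin of epithelial surfaces, lay at -0.39, -0.20 and -0.02 log2 on the cilium-high arrays, against -5.41, -4.25 and -2.07 (lowest, median, highest) on the other 17. All 20 arrays were well above background, the sets did not overlap, and the difference was +3.71 ± 0.56. Elf3, an ETS transcription factor of epithelia, lay at -2.44, -1.42 and -1.88 on the cilium-high arrays, against -4.93, -4.60 and -2.99 on the others, and was +2.09 ± 0.32. Foxa2, a forkhead factor of glandular epithelia, was well above background on the 3 and on 0 of the 17, at least 2.80-fold higher. Foxa2 had also been set as a marker of the uterus, beside Hoxa10 and Hoxa11. Hoxa10 had no probe named here and Hoxa11 was not measured, so Foxa2 alone stood for that organ. Cldn4, a tight junction claudin, lay at -4.60, -3.59 and -4.33 on the cilium-high arrays and reached -4.82 on the others.

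For Cldn3, Cldn7 and Tmprss2 the 3 arrays overlapped with the 17 through replicate 6 at 60 mg/kg/day alone. Cldn3, a claudin, lay at -1.98, -1.70 and -1.36 log2 on the cilium-high arrays and at -6.58, -4.89 and -0.29 (lowest, median, highest) on the other 17, the last on that array. Cldn7, also a claudin, lay at -4.75, -3.44 and -4.01 on the cilium-high arrays and at -4.19 on replicate 6. Tmprss2, a membrane serine protease, lay at -6.42, -5.12 and -5.59 on the cilium-high arrays and at -5.61 on it. Epcam, an adhesion molecule of epithelia, was +0.58 ± 0.33, and replicates 2 and 6 at 60 mg/kg/day were both above the 3. The fitted differences of Cldn3, Cldn7 and Tmprss2 were +2.72 ± 0.95, +2.02 ± 0.60 and +2.45 ± 0.61.

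Keratins and most junction genes did not separate the arrays. Krt18, a keratin of simple epithelia, lay at 0.22, 0.22 and 0.62 log2 on the cilium-high arrays and at -2.68, -1.07 and 0.52 (lowest, median, highest) on the other 17. Krt7 and Krt19 each stood at +0.70 ± 0.32, and replicate 2 at 20 mg/kg/day was the highest of the 17 for both, above all 3 cilium-high arrays for Krt7. Spint1, an inhibitor of membrane proteases, lay at -4.17, -4.18 and -4.41 on the cilium-high arrays, against -4.45 at most on the others. Rab25, a GTPase of apical recycling, was +0.68 ± 0.27 and overlapped. Cdh1, which encodes E-cadherin, spread widely, at 1.94, 0.88 and -1.27 on the cilium-high arrays and from -2.92 to 1.78 on the others. Of the 91 genes in the epithelial lists, 65 were measured, 4 were among the 90, and the median difference was +0.24 log2.

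**Figure D2:**
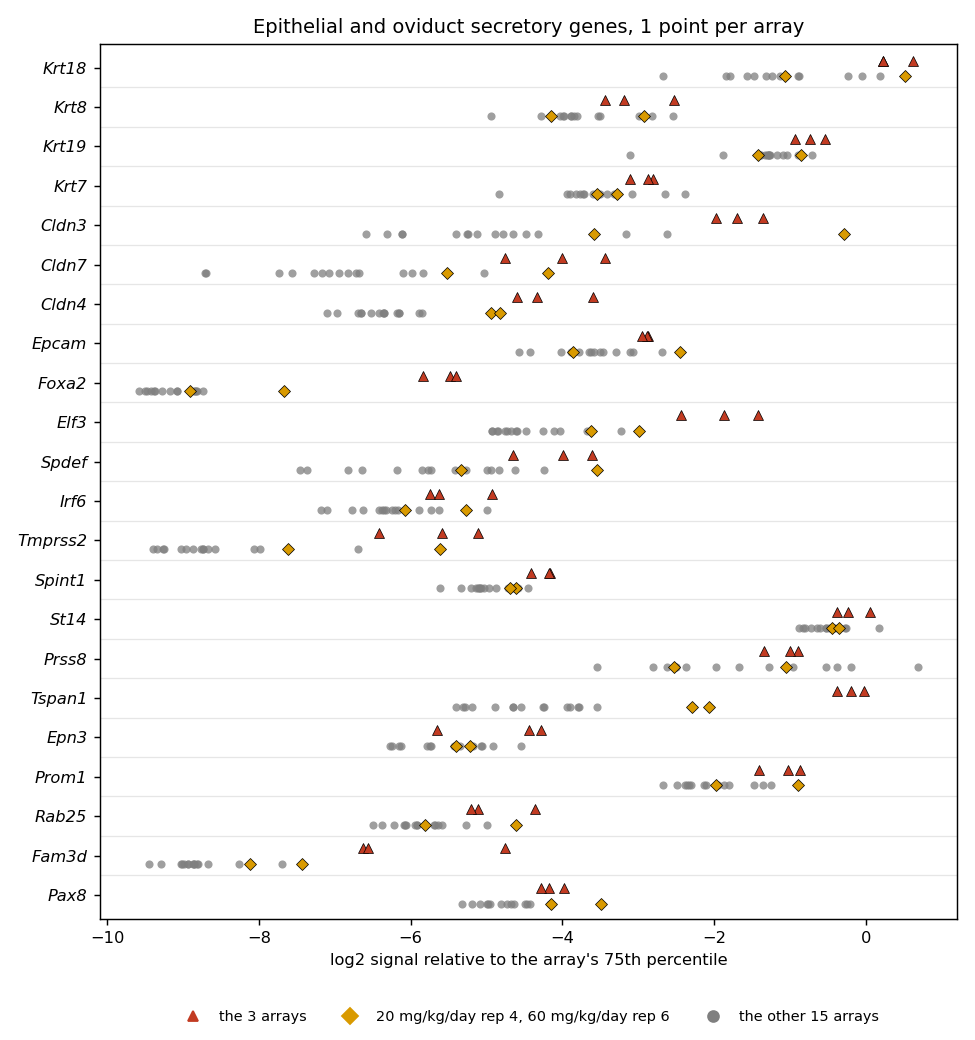
Levels of the 4 most different genes of each epithelial list and of Fam3d and Pax8, 1 point per array, in log2 signal relative to the array's 75th percentile (x axis). Red triangles are the 3 cilium-high arrays, amber diamonds replicate 4 at 20 mg/kg/day and replicate 6 at 60 mg/kg/day, and grey circles the other 15; Tspan1, Elf3, Foxa2 and Cldn4 separate, whereas for Cldn3 an amber diamond at -0.29 lies right of the triangles.

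Secretory and transport genes showed few differences. Fam3d, a small secreted protein, was well above background on the 3 cilium-high arrays and on 0 of the 17, and at least 2.11-fold higher. Pax8, the transcription factor of oviduct secretory cells, lay at -4.17, -4.29 and -3.98 log2 on the cilium-high arrays and at -5.33, -4.67 and -3.49 (lowest, median, highest) on the other 17. Wfdc2, a secreted protease inhibitor, was +0.10 ± 0.17, and Sox17, a transcription factor of secretory cells, -0.10 ± 0.32. Of the 23 measured secretory genes, 1 was among the 90 and the median difference was 0.00 log2. Slc44a4, a choline transporter-like protein, was +1.73 ± 0.30 and did not overlap. Cftr, the chloride channel of fluid-secreting epithelia, was +1.03 ± 0.54, and Aqp3, a water and glycerol channel, +1.82 ± 1.42; both overlapped. The 22 measured transport genes had a median of +0.09 log2.

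Lists of tissue near the oviduct and of the ovary had median differences closer to that of all genes than the cilium lists. None of the 90 genes was in them, and in lists this short a count of 0 does not differ visibly from the 0.713% of all genes. The 13 measured Müllerian patterning genes had a median difference of +0.13 log2, and the 18 genes of ovarian surface epithelium and mesothelium +0.03. Msln, mesothelin, lay at 0.41, -0.05 and 0.23 on the cilium-high arrays and at -0.88, 0.21 and 1.24 (lowest, median, highest) on the other 17. Wt1, a transcription factor of the surface epithelium and granulosa, was -0.06 ± 0.12. The medians were +0.02 for 17 granulosa genes, -0.15 for 13 theca and interstitial genes, +0.14 for 12 corpus luteum genes and -0.09 for 10 steroid receptor and oestrogen response genes. Of the 15 measured oocyte genes, 0 had a positive difference, against 6427 of all 12619 genes. Their median was -0.30 and their range -1.05 to -0.12. These genes belong to the same cell type, so they are not 15 separate observations. The oocyte list mean was -3.38 to -2.03 on the cilium-high arrays and -3.24 to -1.74 on the other 17, so it overlapped. Smooth muscle, fat, endothelium, macrophage, lymphocyte, mast cell, red cell and nerve lists had medians between -0.20 and +0.12. Single genes of these lists lay further out and overlapped. Examples are Gzmb (lymphocyte) at +2.25 ± 0.74, Akr1c3 (corpus luteum) at +2.12 ± 1.89 and Cyp17a1 (theca) at -1.44 ± 1.73.

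**Figure D3:**
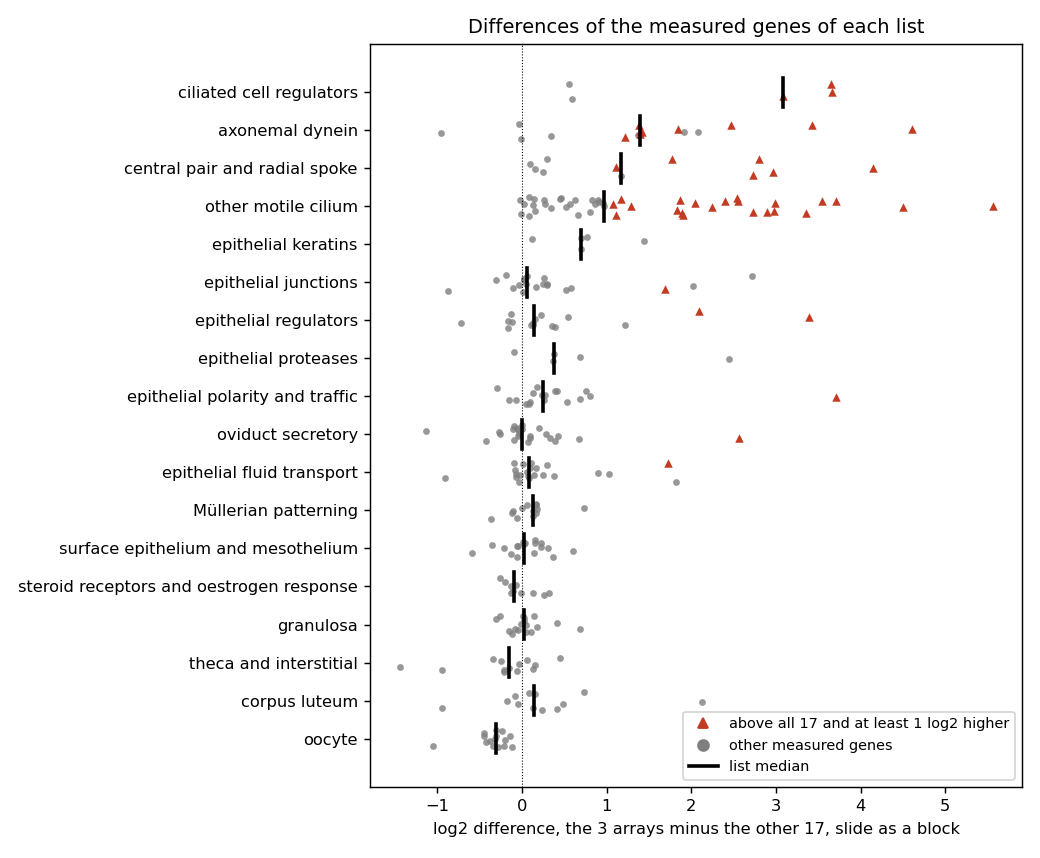
Fitted log2 difference of each measured gene (x axis, the 3 cilium-high arrays minus the other 17, slide as a block), by gene list (y axis). Red triangles are genes above all 17 arrays and at least 1 log2 higher, grey circles other measured genes and black bars list medians. The 4 motile cilium lists at the top have medians from +0.97 to +3.08 (the last +1.05 with Deup1 at its bound). The lists of ovarian cells at the bottom have medians from -0.30 (oocyte) to +0.14 (corpus luteum).

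Outside the lists, the gene with the largest fitted difference was Tbxt, the T-box factor brachyury of the embryonic notochord. It lay at -2.15, -1.73 and -1.90 log2 on the cilium-high arrays, against -9.57, -8.90 and -4.00 (lowest, median, highest) on the other 17, with only 2 of the 17 well above background. The fitted difference was +5.91 ± 0.81, a size that rests mostly on values at background, and the highest of the 17 was again replicate 4 at 20 mg/kg/day. Psapl1, a relative of prosaposin, was +4.92 ± 0.98, Liat1, named as a ligand of an arginyltransferase, +4.57 ± 0.48, and Ttll2, of the family that adds amino acids to tubulin, +4.57 ± 0.58. Gad1, which makes the transmitter GABA, lay at -3.33, -3.19 and -2.74 on the cilium-high arrays and at -9.43, -7.67 and -3.55 on the others. Itgb6, the beta subunit of an epithelial integrin, was +2.91 ± 0.34, and Upk3bl1, a uroplakin-like protein, +3.57 ± 0.73. Fgfbp1, a secreted carrier of fibroblast growth factors, and Hoxa2, a homeobox factor, were well above background on 0 of the 17 and at least 3.05-fold and 1.56-fold higher.

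The 20 genes named outside the lists had the largest fitted differences among genes above all 17 arrays and well above background on the 3. Only genes with regular symbols were taken. Those not yet described included cilium genes that the lists did not hold. Cfap107 and Efhb, proteins inside the microtubule doublets of mammalian cilia, were well above background on 0 of the 17 and at least 6.04-fold and 5.57-fold higher. Daw1, a dynein assembly factor, was at least 2.57-fold higher on the same terms. Cfap276 was +3.42 ± 0.53, Pierce1 +3.05 ± 0.64, Cfap95 +2.34 ± 0.60 and Saxo2 +2.21 ± 0.53, all 4 without overlap, as the choice required. Tmem212 was +3.56 ± 0.50, Dapl1 +3.01 ± 0.43, Armh1 +2.66 ± 0.46 and Tsnaxip1 +2.22 ± 0.27. The other 17 arrays were not empty of the transcripts of the 90 genes: 25 were well above background on all 17, 51 on some and 14 on 0. Of all 12619 genes, 10998 were well above background on all 20 arrays, so the 90 were more often dim on the 17. In ovary RNA, fewer ciliated cells and less RNA per cell cannot be told apart. Whether the signal on the 17 comes from ciliated cells at all was not tested.

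Over the 90 genes, which were chosen for being high on all 3 arrays, the median gap between the highest and the lowest of the 3 was 0.51 log2, against 0.41 for all genes. Replicate 2 at 0 mg/kg/day was the lowest of the 3 for 75 of the 90 genes, replicate 4 at 0 mg/kg/day for 9 and replicate 5 at 20 mg/kg/day for 6. Against the mean of the other arrays on their own slide, the median of the 90 genes was +2.35, +2.41 and +2.34 log2 in that order, so replicate 2 was not the lowest within slides, although slide 3 also holds the next highest arrays of the 17.

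Next to the 3 stood replicate 4 at 20 mg/kg/day and replicate 6 at 60 mg/kg/day, both on slide 3. The mean over the 78 motile cilium genes was -3.28, -2.99 and -2.95 log2 on the cilium-high arrays, then -4.02 and -4.25 on these arrays and -5.07 to -4.61 on the other 15. The lowest of the 3 was thus 0.74 log2 above the highest of the 17. By the mean over the 65 epithelial genes the order differed: -3.56, -3.22 and -3.35 on the cilium-high arrays, -3.34 on replicate 6 and -3.69 on replicate 4. By the mean of the 6 given markers replicate 2 at 0 mg/kg/day, at -3.70, lay below replicate 6, at -3.67. Among the 17, replicate 4 was the highest for 47 of the 90 genes (52.2%) and replicate 6 for 22 (24.4%), against 9.81% and 4.19% of all 12619 genes. For the 65 epithelial genes, replicate 6 was the highest of the 17 in 18 (27.7%) and of all 20 in 9 (13.8%, against 3.00% of all genes), whereas for the 78 cilium genes it was the highest of all 20 in 0. Against the 15 arrays without them, 108 genes met the rule, all 90 included.

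**Figure D4:**
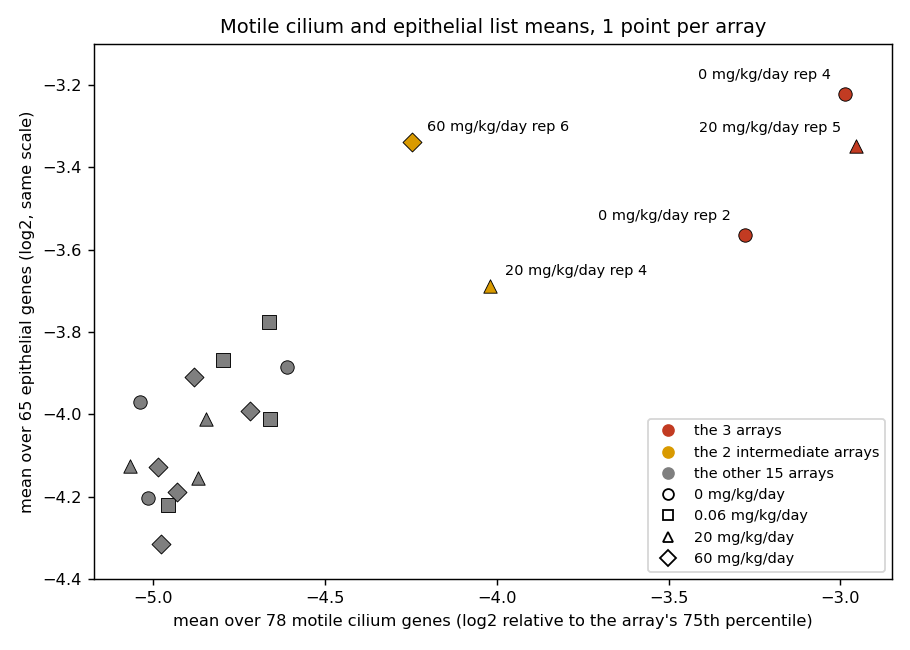
Mean level over 78 motile cilium genes (x axis) and over 65 epithelial genes (y axis), both in log2 relative to the array's 75th percentile, 1 point per array, with shapes for dose. The 3 cilium-high arrays (red) lie at -3.28 or higher on the x axis and the rest at -4.02 or lower, while on the y axis replicate 6 at 60 mg/kg/day (amber) lies among the 3.

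The 3 arrays fall unevenly over the doses, 2 of 5 at 0 mg/kg/day and 1 of 5 at 20, so dose contrasts were fitted with and without them, with slide as a block. The 90 genes were chosen for being high on these 3 arrays. Their negative medians on 20 arrays, and the turn without the 3, therefore follow at least in part from that choice and describe no effect of dose. On all 20 arrays the median difference of the 90 genes from 0 mg/kg/day was -0.78, -0.43 and -0.60 log2, from the lowest dose to the highest. On the 17 arrays it was +0.20, +0.23 and +0.26. For the 78 motile cilium genes it was -0.40, -0.24 and -0.35 on 20 arrays and +0.06, +0.09 and +0.03 on 17. Single arrays turned or nearly removed these medians on 17 arrays. At 0.06 mg/kg/day the median was -0.07 once replicate 1 of the 0 mg/kg/day group was left out. At 20 mg/kg/day it was -0.04 with its replicate 4 left out, and at 60 mg/kg/day 0.0048 with its replicate 6 left out. Foxj1 was -1.58 ± 1.06, -0.77 ± 1.01 and -0.28 ± 0.98 on 20 arrays, and +0.13 ± 0.67, +0.41 ± 0.67 and +1.28 ± 0.62 on 17. Dynlrb2 was -1.42 ± 1.30, -0.71 ± 1.24 and -0.93 ± 1.21 on 20 arrays, and +0.54 ± 0.82, +0.51 ± 0.82 and +0.85 ± 0.76 on 17.

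No probe passed in either fit. On the 17 arrays limma called 0 of 23630 probes (0.0%) at each dose after Benjamini-Hochberg adjustment, with 783, 859 and 1403 at an unadjusted p under 0.05 and lowest adjusted p of 0.999, 0.999 and 0.832. On 20 arrays it called 0 as well, with 998, 1441 and 1359. The medians on the 17 arrays rest in part on single animals: that of the 90 genes was +0.02 at 20 mg/kg/day with its replicate 4 left out. It was +0.16 at 60 mg/kg/day with replicate 6 left out and +0.10 at 0.06 mg/kg/day with replicate 1 left out.

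**Figure D5:**
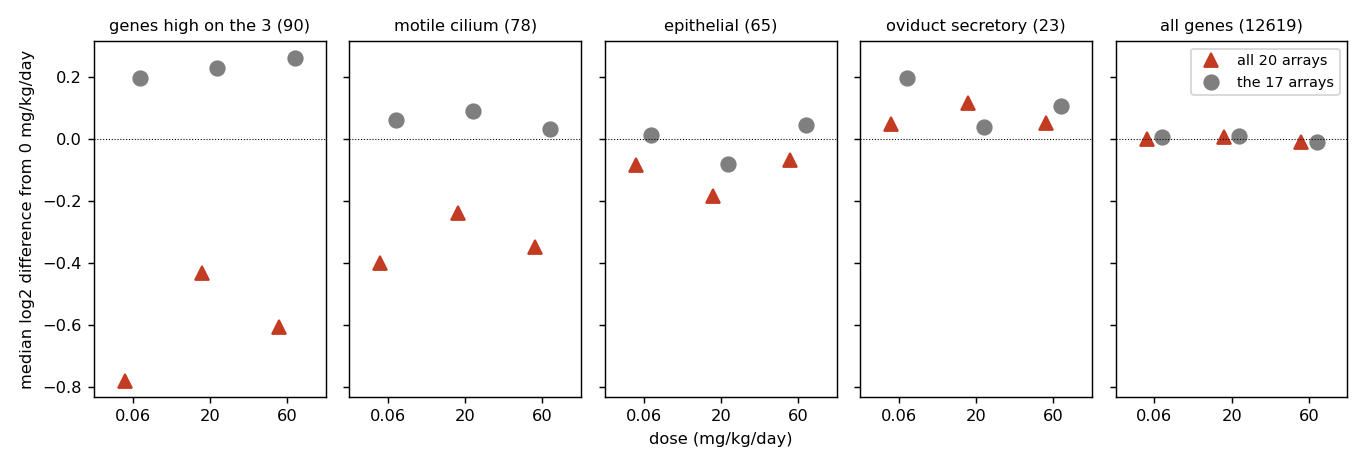
Median log2 difference from 0 mg/kg/day (y axis) by dose in mg/kg/day (x axis) for the 90 genes, 3 groups of lists and all 12619 genes, with gene counts above each panel. Red triangles are fits on all 20 arrays and grey circles fits on the 17. For the 90 genes the triangles lie at -0.78 to -0.43 and the circles at +0.20 to +0.26. These genes were chosen for being high on the 3 arrays, so this gap follows at least in part from the choice.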

How the data were processed

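RNA of 20 animals was labelled with Cy3 and hybridised to 1-colour arrays. Per the file headers, Feature Extraction 11.5.1.1 gave the processed signal, a linear intensity after background subtraction. A deposited table with log2 values by the authors, whose centring stays unknown and whose array medians were -0.07 to 0.08, served as an alternative. Array 0.06 mg/kg/day replicate 4, removed by the submitters as an outlier, was not analysed here.

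The processed signal was averaged over the spots of a probe without outlier spots, and log2 values were centred on the 75th percentile of the array over non-control probes. Of 30367 probes, 32 had no usable spot on some array. Probe accessions matched RefSeq genes for 18745 probes (15705 symbols), and 11590 had no symbol here. A probe was kept if well above background on at least 3 arrays (23630 probes, 12619 genes), and a gene was read from its brightest kept probe. Differences come from limma 3.58.1 in R 4.3.3 with slide as a block; the median residual SD was 0.237 log2, and 5155 probes differed between slides. For a probe well above background on 0 of the 17 arrays, "at least N-fold" sets the mean of the 3 against the mean, over the 17, of the probe's signal, raised where needed to the dimmest signal counted as well above background on that array. Dose contrasts used limma on the 17 arrays with Benjamini-Hochberg adjustment at 0.05. The number of arrays limits the precision. The fits were tested on simulated data.

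The 3 arrays, the gene lists and the tests were chosen with earlier results of these data known. Named genes are the given and cell type markers, 10 set genes, the 4 most and the 1 least different genes of each epithelial, secretory, transport, cilium, Müllerian, surface and oestrogen list, and the 20 largest differences and the lowest outside the lists; genes at the size limit were chosen after their values were seen. Of the 10 set genes, Ovgp1, Upk3b, Hoxa9 and Hoxa10 had no probe named here, and Hoxa11 was not measured. Same-numbered arrays had deviations correlating at -0.61 to 0.14 after slide was removed. Such values cannot exclude a pairing by number, and the main fits used none.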

Additional observations from a re-analysis of the deposited data

Results flagged for a closer look

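Within a dose group, 5 of 72 tested sets of values held 1 animal far from the others by Dixon's ratio. Chance gives about 1 in 20 of independent sets. These 72 sets, from 18 items in 4 dose groups, share arrays and are not independent. The 5 can therefore not be judged against that rate and only describe single animals. The mean of the motile cilium genes was -4.246 log2 on replicate 6 at 60 mg/kg/day, against -4.985 to -4.72 on the other 5 animals. On the same array Foxj1 stood at -3.035, against -7.093 to -6.052, and Tmprss2 at -5.611, against -9.261 to -7.989. Replicate 1 at 0.06 mg/kg/day stood at -2.646 for Krt7, against -3.907 to -3.714 on the other 3 animals, and at -6.698 for Tmprss2, against -9.026 to -8.729. Neither animal is among the 3 cilium-high arrays.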

How the results depend on the processing

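The count of 90 genes was 170 within slide 1 and 147 within slide 3, where fewer arrays are compared, and 37 with normexp on the median signal, all 37 among the 90. Leaving out 1 of the 3 arrays gave 90 to 113, and the other settings 74 (well above background on 4 arrays) to 108. The count of lower genes, 0, was 59 within slide 1, 44 within slide 3 and 1 to 3 when 1 of the 3 arrays was left out. The motile cilium median was 0.46 log2 with normexp, against 1.19, and 1.11 to 1.32 elsewhere. Other list medians moved by less than the spread between the 3 arrays. All 40 named genes among the 90 stayed positive in every setting that measured them; the filter on 4 arrays measured 29. With normexp 21 of the 40 stayed at least 1 log2 higher and 32 above all 17 arrays, and 39 were above all 17 without a filter or in the authors' deposited values. With the replicate block the count was 89 and each dose count 0. Dose counts were 0 in every setting, including all leave-one-out fits. The planned normexp on mean signals was not run, since the files have no such column. The comparison with 15 arrays, normexp on medians and the spike-in block were added after seeing the data. Dim probes limit the folds of the 14 genes not above background on the 17 arrays. They also limit, in part, the sizes of the 51 genes of the 90 that were well above background on only some of the 17.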

Other observations

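Gabrp, a subunit of the GABA-A receptor, was singled out after its values were seen, beside Gad1, which makes GABA. It lay at -5.62, -5.49 and -5.15 log2 on the 3 cilium-high arrays and at -8.50, -7.56 and -6.58 (lowest, median, highest) on the other 17, without overlap and with a difference of +1.83 ± 0.30 (SE). For both genes the highest of the 17 was replicate 6 at 60 mg/kg/day.

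Some epithelial genes, also singled out after their values were seen, were higher on that array than on the 3 cilium-high arrays. Cdh16, a cadherin best known from kidney tubules, lay at -6.10, -5.41 and -6.08 log2 on the cilium-high arrays and at -2.34 on replicate 6, the highest of all 20. The median of the 17 was -5.19, also above the 3. Pax8 stood at -3.49 and Cldn3 at -0.29 on replicate 6, both above the 3 cilium-high arrays.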
